A study of Homo sapiens with 3 samples.

Results

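Transcription of protein-coding genes is carried out by RNA polymerase II, which is placed at promoters by the general transcription factors and coupled to DNA-bound regulators by Mediator. To describe the RNA levels of this machinery in HEK293T cells, genes were chosen by name alone: protein-coding genes of GENCODE v44 that bear the symbol of a polymerase II subunit, of TFIIA, TFIIB, TFIIE, TFIIF or TFIIH, of TBP, of a TBP-associated factor (TAF) or of a Mediator subunit. The rule gave 80 of 61193 genes with at least 1 deposited transcript, 19926 of which are protein-coding. They were 13 polymerase genes, 13 general factors (TBP included), 24 TAFs and 30 Mediator genes. The rule itself uses names and gene types and no measured value.

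RNA-seq was performed in 3 independent biological replicates of 1 condition, so no treatment or genotype was compared. HEK293T derives from human embryonic kidney and expresses the large T antigen of SV40. The cells were grown in DMEM with serum and antibiotics, seeded at 1500000 cells per flask and collected 24 h later, and 2 µg of total RNA from 3000000 cells went into each QuantSeq 3′ mRNA-seq library, which is primed at the poly(A) tail and reads the 3′ end of a transcript. The labels name the material genomic DNA, whereas the protocols and the study describe RNA.

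As background, promoter opening starts with TFIID, a complex of TBP and TAFs that holds the core promoter. TFIIA and TFIIB then join it, TFIIF brings in the polymerase, and TFIIE recruits TFIIH, whose helicase opens the DNA. Mediator, built from head, middle and tail modules on a scaffold with a separable kinase module, contacts the polymerase and the activators. These complexes serve nearly all protein-coding genes, and a minority of the TAFs belongs to other machines: TAF1A to TAF1D to the polymerase I factor SL1, TAF5L and TAF6L to the coactivator SAGA.

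The libraries held 6262175 to 8521624 counts on transcripts. Mitochondrial genes took 9.59% of the counts in replicate 1, 5.70% in replicate 2 and 25.8% in replicate 3. The members together held 50377 to 52778 counts per library, or 0.800% to 0.853% of the counts outside mitochondrial genes. A count of 0 allows up to 3 counts, which equals 0.352 to 0.479 CPM (counts per 1000000), and such limits cover counting error only. Molecular identifiers on the reads are not mentioned by the study. Of 7 genes taken as markers of the line, 3 reached a mean TPM (transcripts per 1000000) of at least 1. They were LIN28B, highest at 40.8 ± 14.8 TPM (SD, n = 3), PAX2 at 8.96 and KRT8 at 1.35. VIM had 0, 6 and 5 counts, and KRT18, NEFL and NEFM were listed at 0. At most 2% of the 3′ end lay in 1 transcript alone, a property described below, for VIM, KRT18, NEFM and PAX2. For LIN28B and NEFL it was 100%. Of 4 markers of other cell types, the leukocyte gene PTPRC and the hepatocyte gene ALB were listed at 0, the endothelial gene PECAM1 was at 0.0329 TPM and the fibroblast gene COL1A1 was at 24.8 ± 0.330 TPM (SD, n = 3).

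A gene was called expressed at a mean TPM of at least 1, where TPM is the count divided by transcript length and scaled to 1000000 per library. By this measure 51 of the 80 members were expressed, a share of 63.8% beside 38.2% of all protein-coding genes. The high category, which starts at the third quartile of all expressed genes (24.1 TPM), held 32 members, or 40.0%, beside 12.5% of protein-coding genes. A further 15 members were medium, 4 were low (at or below the first quartile, 2.40 TPM) and 29 were not expressed. No count in any replicate was found for 14 members, or 17.5%, beside 36.5% of protein-coding genes. The median TPM was 5.98 over all members and 0.195 over all protein-coding genes. Because the reads come from 3′ ends, division by length lowers long transcripts relative to short ones in every TPM value given here.

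**Figure D1:**
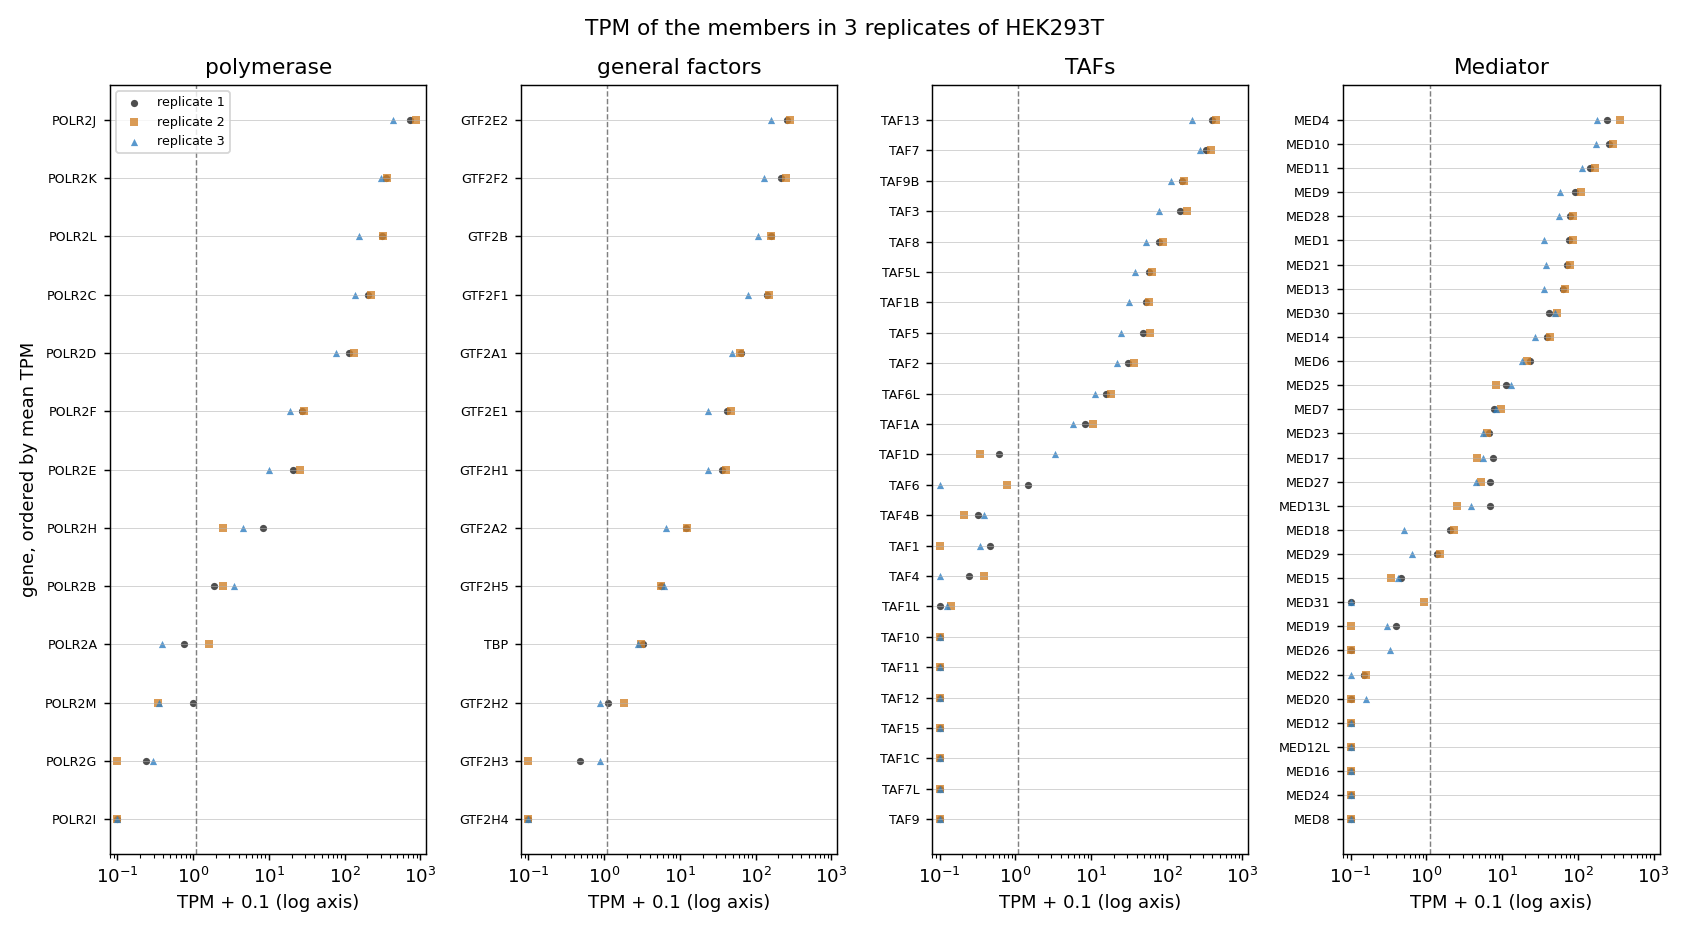
TPM + 0.1 on a log axis for each member in the 3 replicates, in panels for the polymerase, general factors, TAFs and Mediator, with genes ordered by mean TPM and a dashed line at 1 TPM. Within each group the genes run from above 200 TPM down to genes at 0 in all replicates, drawn at the left edge, and the points of replicate 3 lie left of the others for most genes above the line.

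The study maps i-motifs, folded structures of C-rich DNA, and G-quadruplexes, their counterparts on the G-rich strand. The promoters of the members were therefore searched for 4 tracts of at least 3 C with loops of 0 to 7 bases. The search covered both strands within 1 kb of the start of the canonical transcript. A long run of C may hold more than 1 tract. Such a stretch lay at 52 of 80 members (65.0%), beside 71.3% of all protein-coding genes. By group, it lay at 11 of 13 polymerase genes, 8 of 13 general factors, 16 of 24 TAFs and 17 of 30 Mediator genes. The stretch nearest upstream of the start and outside annotated exons is shown for POLR2A and for the gene in each group where it lay closest, since these are the kind of stretch whose folding the study maps. Capitals mark the C tracts on the strand that carries them, 5′ to 3′, in hg38.
POLR2A, chr17:7484303-7484330, minus strand, 36 to 63 bases upstream: CCCtcgcgtCCCCgCCCCttcctttCCC
POLR2L, chr11:842560-842578, plus strand, 31 to 49 bases upstream: CCCCCCCaggCCCCgCCCC
GTF2A1, chr14:81220961-81220981, minus strand, 2 to 22 bases upstream: CCCCtCCCtCCCCCttcaCCC
TAF4, chr20:62065887-62065907, minus strand, 6 to 26 bases upstream: CCCCCCgCCCgCCCagcgCCC
MED13, chr17:62065292-62065311, minus strand, 14 to 33 bases upstream: CCCCCCCCCCggCCCtCCCC
In GTF2A1, TAF4 and MED13 the C tracts are on the strand of the gene, and in POLR2A and POLR2L on the other strand. The GTF2A1 gene is annotated up to chr14:81221377, so its stretch lies upstream of the canonical start but within the gene. A match describes the letters only. The 5 genes ranged widely in level: MED13, GTF2A1 and POLR2L were in the high category, whereas POLR2A and TAF4 were not expressed by the measure above.

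Among the polymerase genes, 9 of 13 were expressed, with a median of 18.7 TPM over all 13 and an SD of 8.07 between the medians of the replicates. The 5 subunits shared with polymerases I and III were all expressed. POLR2K was at 338 ± 31.2 TPM, POLR2L at 263 ± 94.5, POLR2F at 27.1, 28.7 and 19.2 in the 3 replicates, POLR2E at 18.7 ± 8.07 and POLR2H at 5.09 ± 3.03 (SD, n = 3). POLR2H rested on 17, 4 and 14 counts, of which 32 of 35 lay on 1 retained-intron transcript, and with protein-coding transcripts only it was at 0.198 TPM and no longer expressed. The shared subunits thus spanned the range from medium to high.

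The genes of subunits that only polymerase II uses were split. POLR2J, which pairs with POLR2C in the assembly platform of the enzyme, had the highest TPM of all members at 730, 890 and 441 in replicates 1, 2 and 3, from 3087, 3180 and 2739 counts. In CPM, not divided by length, MED28 was the highest member at 531 and POLR2J was at 423. POLR2C was at 206, 222 and 139 TPM. POLR2D, part of the stalk, was at 116, 133 and 76.0 TPM. All 3 genes were highest in replicate 2 and lowest in replicate 3 on the TPM scale.

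The genes of the catalytic core had few counts. POLR2A, the largest subunit with the C-terminal repeat domain, had 4, 3 and 4 counts, or 0.657, 1.53 and 0.288 TPM. All 11 counts lay on retained-intron transcripts, 7 of them on one, and the canonical transcript of POLR2A was not among the transcripts analysed here. POLR2B, the second-largest subunit, which lines the active site with POLR2A, had 4, 5 and 12 counts, with none on a protein-coding transcript and 17 of 21 on 1 retained-intron transcript. The stalk partner POLR2G had 1, 0 and 2 counts, and POLR2I, a subunit involved in fidelity, had 0 in every replicate. POLR2M, a protein that associates with the enzyme, had 4, 3 and 1 counts. Each of these genes except POLR2A, for which it could not be computed, had at most 1% of its 3′ end in 1 transcript alone, the property described next.

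The counts were made per transcript, and the 3′ end of a gene is often listed in several transcripts. The final 300 exonic bases of each canonical transcript were therefore compared with all other listed transcripts on the same strand, of the same or another gene. In 39 members less than 10% of this end lay in 1 transcript alone, and 15 of these were expressed, 13 had no count and the median count was 1.33. In 39 other members at least 10% lay in 1 transcript alone, of which 36 were expressed, 0 were without counts and the median count was 1025. The canonical transcript of the remaining 2, POLR2A and MED12L, was not listed. Over all protein-coding genes, 26.1% of 10274 genes under the 10% limit were expressed and 52.1% of 9077 genes above it. The limit was set after values were seen, and the members nearest to it were MED13L at 8% (92, 73 and 118 counts) and MED29 at 26.7% (4, 3 and 2 counts). How reads on several transcripts were treated is not given in the sources used here, and the part of the counting in these levels was not tested.

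**Figure D2:**
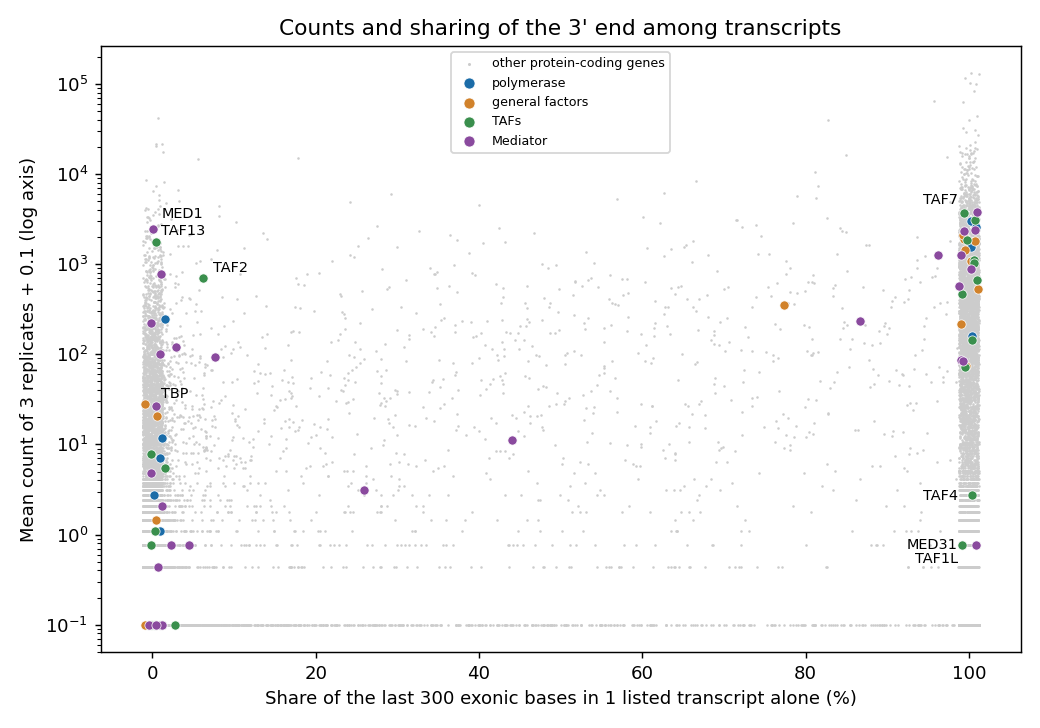
Mean count of 3 replicates + 0.1 on a log axis against the share of the final 300 exonic bases that lie in no other listed transcript, for 78 members in colours by group and for the other protein-coding genes in grey. Points were shifted sideways by up to 1.2 percentage points. Most members sit at either edge, with 13 members at 0 counts on the left and 0 on the right. TAF13, MED1 and TAF2 had high counts at the left edge, and TAF4, MED31 and TAF1L had few at the right edge.

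Several members went against this division. TAF13 had 1950, 1833 and 1530 counts although its canonical 3′ end lay wholly in more than 1 transcript, and 5311 of its 5313 counts were on another protein-coding transcript. MED1 had 2793, 2663 and 1908 counts, with 7363 of 7364 on the canonical transcript, which has 2405 bases of its own outside that end. MED21, TAF2, MED25 and POLR2E likewise had means of 223 to 782 counts. In the other direction, TAF4 had 3, 5 and 0 counts, MED31 had 0, 2 and 0, and TAF1L had 0, 1 and 1, with a 3′ end of their own on the strand. The end of MED31 was overlapped throughout by exons of the other strand.

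Among the general factors, 11 of 13 were expressed, the largest share of the 4 groups. Their median was 33.0 TPM, with an SD of 8.47 between the medians of the replicates. Above the 10% limit for the 3′ end, 9 of 9 general factors and 6 of 6 polymerase genes were expressed. For TAFs it was 9 of 11 and for Mediator genes 12 of 13. Under the limit the values were 2 of 4, 3 of 6, 3 of 13 and 7 of 16, in the same order. The part of the 3′ ends in this ranking was not tested. The subunits of TFIIE and TFIIF were all in the high category. On the TPM scale GTF2E2 led the group at 259, 281 and 160 TPM, from 2040, 1881 and 1850 counts. Its partner GTF2E1 was at 37.6 ± 12.5 TPM (SD, n = 3). GTF2F2 was at 199 ± 63.8 and GTF2F1 at 124 ± 38.3 TPM, and in CPM GTF2F2 was above GTF2E2, at 294 against 269. In both factors the smaller subunit had the higher mean in TPM, a scale that favours short transcripts. The order was the same in CPM, where GTF2E1 was at 74.3 and GTF2F1 at 200.

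GTF2B, the single subunit of TFIIB that bridges TBP and the polymerase, was at 158, 160 and 107 TPM. Of TFIIA, which steadies TBP on DNA, GTF2A1 was at 58.3 ± 8.85 TPM and GTF2A2 at 10.3 ± 3.38 TPM. TBP, which binds the TATA box, was at 3.16, 2.94 and 2.68 TPM, in the medium category. Its 28, 22 and 35 counts were all on 1 transcript annotated for nonsense-mediated decay, so that 0 were on a protein-coding transcript. The 3′ end of the canonical transcript of TBP was wholly shared with other transcripts.

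The core subunits of TFIIH spread over all categories. GTF2H1 was at 33.0 ± 8.39 TPM and GTF2H5, the smallest, at 5.71 ± 0.334 TPM (SD, n = 3). GTF2H2 was at 1.17 ± 0.485 TPM from 18, 22 and 21 counts, and its 3′ end shares all of its 31-base words with GTF2H2B, GTF2H2C or another copy, so that this level is uncertain. GTF2H3 had 1, 0 and 3 counts. GTF2H4 had 0 counts in every replicate, and its 3′ end lies wholly in an overlapping gene on the same strand. The other TFIIH genes spread in the same manner, with the helicase gene ERCC2 at 33.1 ± 1.97 TPM, CCNH at 2.82 ± 0.716 and MNAT1 at 1.30 ± 0.365. ERCC3, the helicase that opens the promoter, had 1, 2 and 3 counts, or 0.107 TPM, and the kinase gene CDK7 had 0 counts in every replicate. At most 0.333% of the 3′ end lay in 1 transcript alone for ERCC3, CDK7, CCNH and GTF2H3. ERCC2 and MNAT1 had a 3′ end of their own.

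Of the 24 TAFs, 12 were expressed, with a median of 1.00 TPM and an SD of 0.645 between the medians of the replicates. The median lies between expressed and unexpressed genes and moved with the setting, to 0.590 TPM with the median over replicates and 1.55 TPM with mitochondrial genes left out. The 14 TAFs of TFIID fell into 7 in the high category and 7 not expressed, with 0 between. TAF13 was at 399, 444 and 213 TPM, the highest of the group on this scale, while in CPM it was at 250, below TAF7 at 508, TAF3 at 442 and TAF9B at 259. TAF7, which regulates the activity of TAF1, was at 330, 387 and 275 TPM. TAF9B, a histone-fold subunit, was at 158, 167 and 113 TPM. These genes differed by less than their spread between replicates for TAF13 and TAF7, whereas in TPM every replicate of TAF9B lay below every replicate of both.

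The other expressed TAFs of TFIID were TAF3, which reads methylated histone H3, at 138 ± 54.6 TPM, TAF8 at 73.4 ± 18.9, TAF5 at 43.9 ± 17.7 and TAF2 at 29.7 ± 7.69 (SD, n = 3). Those not expressed included TAF1, the largest subunit and scaffold, with 1, 0 and 1 counts, TAF4 with 3, 5 and 0, and TAF6 with 2, 1 and 0. TAF9, TAF10, TAF11 and TAF12, which carry histone folds, had 0 counts in every replicate. All of the 7 except TAF4 had under 1% of the 3′ end in 1 transcript alone. TAF9 also overlaps AK6 on the same strand.

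The TAFs of other complexes differed in level. Of the SL1 subunits, TAF1B was at 47.8 ± 14.1 TPM and TAF1A at 8.06 ± 2.39 (SD, n = 3), TAF1D had 3, 1 and 19 counts, none on a protein-coding transcript (1.32 TPM, and 0.372 TPM and not expressed without replicate 3), and TAF1C had 0 in every replicate. TAF1D hosts several small nucleolar RNAs. TAF15, an RNA-binding protein of the FET family, also had 0 counts in every replicate. The 3′ ends of TAF1C and TAF1D were wholly shared with other transcripts, and 2.67% of that of TAF15 lay in 1 transcript alone. TAF1A and TAF1B had a 3′ end of their own.

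Paralogs offered a comparison within the group, since pairs other than TAF1 with TAF1L and TAF9 with TAF9B shared 0 of their 31-base words. TAF7 was at 275 to 387 TPM, and the germline paralog TAF7L had 0 counts in every replicate and a 3′ end wholly shared with other transcripts. TAF9B had 1904, 1702 and 1998 counts where TAF9 had 0, 0 and 0. TAF6L was above TAF6 in each replicate, at 15.2 ± 3.69 TPM against 1.37, 0.679 and 0. For TAF6 and TAF9 too, but not for TAF6L and TAF9B, the 3′ end was wholly shared with other transcripts.

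TAF5 and TAF5L both had a 3′ end of their own. TAF5L, the SAGA paralog, was higher in all 3 replicates, at 57.9, 63.1 and 37.8 TPM against 48.2, 59.1 and 24.5 for TAF5. The ratio of TAF5 to TAF5L was 0.806 ± 0.147 (SD, n = 3), and the ranges of the genes over replicates overlapped. MED13 likewise had a 3′ end of its own, whereas only 8% of that of MED13L lay in 1 transcript alone. MED13 was above MED13L in all replicates, at 63.1, 67.5 and 35.3 TPM against 6.71, 2.44 and 3.79. The ratio was 9.40, 27.7 and 9.31 in the 3 replicates, with a mean of 15.5 ± 10.6 (SD, n = 3) and 9.35 without replicate 2, and with protein-coding transcripts only MED13L was at 0.792 TPM and MED13 at 55.0. The part of the unequal 3′ ends in the ratio of MED13 to MED13L was not tested. MED12 and MED12L had 0 counts in every replicate. The 3′ end of MED12 was wholly shared with other transcripts, and the canonical transcript of MED12L was not listed. TAF4 and TAF4B, with 3, 5 and 0 against 5, 2 and 9 counts, could not be ordered at this depth. TAF1 shares 25.4% of its words with TAF1L, and both had at most 1 count in a replicate.

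**Figure D3:**
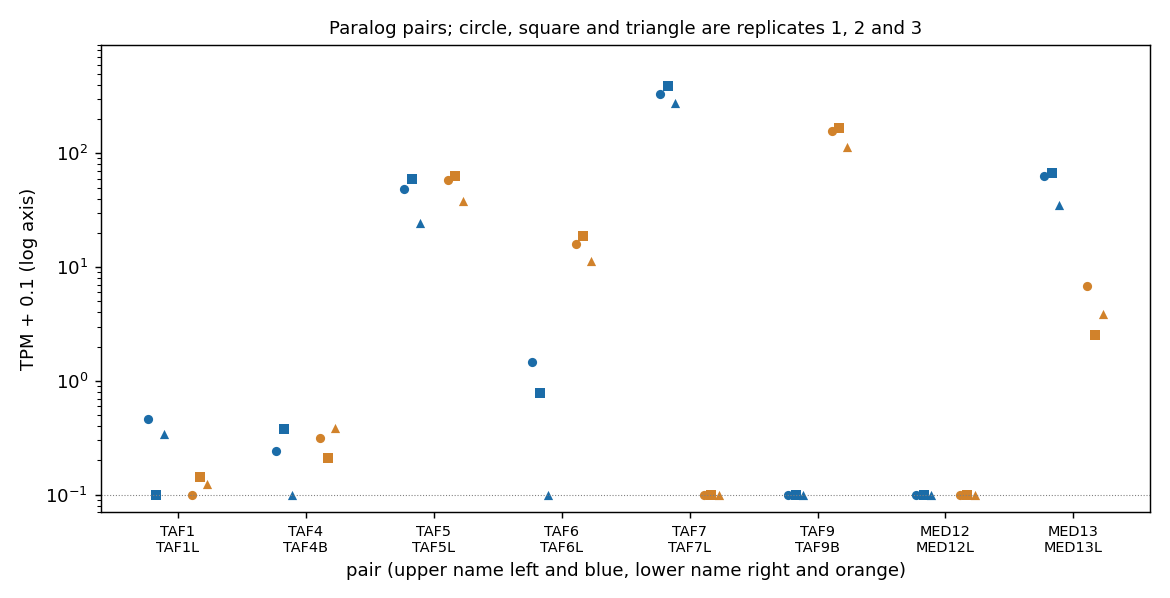
TPM + 0.1 on a log axis for 8 paralog pairs, with the upper gene in blue on the left, the lower in orange on the right, and circles, squares and triangles for replicates 1, 2 and 3. Points on the dotted line are at 0. The replicates of TAF5 and TAF5L overlap, those of TAF6 and TAF6L, TAF7 and TAF7L, TAF9 and TAF9B, and MED13 and MED13L do not, and MED12 and MED12L are at 0 in all.

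Of the 30 Mediator genes, 19 were expressed, with a median of 5.63 TPM and an SD of 1.10 between the medians of the replicates. By module, 6 of 8 middle genes were expressed, with a median of 64.1 TPM, 6 of 10 head genes with a median of 3.66, and 4 of 7 tail genes with a median of 1.08. None of the 7 tail genes was in the high category, beside 5 of 8 in the middle and 3 of 10 in the head. The share of the 3′ end in 1 transcript alone moved with this order: 5 of 8 middle genes, 5 of 10 head genes and 1 of 7 tail genes were above the 10% limit.

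MED4 and MED10, which belong to the middle module, were the highest Mediator genes in TPM, whereas in CPM, not divided by length, the order was MED28 at 531, MED1 at 349, MED4 at 341 and MED13 at 330, with MED10 at 178. MED4 was at 245, 360 and 179 TPM, from 2249, 2660 and 2365 counts. MED10 was at 261, 295 and 174 TPM. The ranges of both genes over the replicates overlapped. MED9 was at 85.9 ± 25.5, MED21 at 62.8 ± 22.3 and MED7 at 8.52 ± 1.03 TPM (SD, n = 3). MED1, through which nuclear receptors contact Mediator, was at 75.6, 85.4 and 35.5 TPM. MED31 and MED26 stood apart from the other middle genes with 0, 2 and 0 and with 0, 0 and 6 counts. MED31 had a 3′ end of its own on the strand, whereas that of MED26 was wholly shared with other transcripts. All 6 counts of MED26 lay on 1 retained-intron transcript.

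MED14, the scaffold that joins the modules, was at 38.7, 43.3 and 26.8 TPM, from 1319, 1188 and 1307 counts. In the head, MED11 was at 143 ± 28.9, MED28 at 73.2 ± 15.1, MED30 at 47.7 ± 6.07 and MED6 at 21.1 ± 2.61 TPM (SD, n = 3). MED17, the central head subunit, was at 5.81 ± 1.50 TPM, and 142 of its 252 counts were on a retained-intron transcript and 18.7% on protein-coding transcripts. MED18 had 16, 12 and 5 counts, and MED8, MED19, MED20 and MED22 had at most 1 count in each replicate. At most 3.67% of the 3′ end lay in 1 transcript alone for MED8, MED19, MED20 and MED22. Of the tail, which many activators bind, MED25 was at 10.8 ± 2.47, MED23 at 6.15 ± 0.580 and MED27 at 5.45 ± 1.25 TPM, MED15 had 7, 4 and 3 counts, and MED16 and MED24 had 0 in every replicate.

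In the kinase module, which can detach from Mediator, MED13 was at 55.3 ± 17.5 TPM and MED13L at 4.31 ± 2.19 TPM (SD, n = 3). Its cyclin gene CCNC was at 3.21 ± 0.365 TPM, whereas the kinase genes had 0 counts in every replicate for CDK8 and 1, 0 and 0 for CDK19. The 3′ ends of CCNC, CDK8 and CDK19 were all wholly shared with other transcripts.

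At the level of transcripts, 138 of the 684 listed for the members carried counts. The leading transcript was the canonical one in 42 of 66 members with counts, another protein-coding one in 9 and not protein-coding in 15, of which 10 were retained-intron transcripts. Of these 15, 14 had a mean count under 50, MED17 being the other at 84.0. MED17 and MED29 were above the 10% limit for the 3′ end, POLR2A could not be placed and the rest of the 15 were under it. Of 43 members with a mean of at least 50 counts, 37 had at least 90% of their counts on 1 transcript. Protein-coding transcripts held 99.2% of the members' counts, beside 97.6% over all protein-coding genes. With these transcripts only, 43 members were expressed in place of 51, and those that lost the call were POLR2B, POLR2H, TBP, GTF2H2, TAF1D, MED13L, MED17 and MED29. For the type of leading transcript and for lost calls, no share over all protein-coding genes is given here. Neither is read as particular to the members. A poly(A) signal AATAAA lay in the last 50 bases of 52 of 80 members (65.0%), beside 63.7% of protein-coding genes, and ATTAAA alone in 10.

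To ask whether the replicates differed beyond counting error, the counts of each gene were compared with the counts of each library outside mitochondrial genes by a chi-square test of homogeneity over all genes with an expected count of at least 5 per library, which compares libraries and not conditions. It called 29 of 51 members tested, or 56.9%, at an adjusted p under 0.05, beside 48.4% of 13060 genes and 52.1% of protein-coding genes tested, a share near the background. Replicate 3 was the lowest in 15 of the 29, the highest in 12 and between the others in 2, and it was also the library with 25.8% mitochondrial counts. Without replicate 3 the count was 6, a value for which no share over all genes is given here. The part of the mitochondrial counts in these differences cannot be told apart from that of any other property of the library.

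MED25 had the widest spread of the 43 members with at least 50 counts, at 31.8, 21.0 and 54.4 counts per 1000000 counts outside mitochondrial genes, an SD of 47.7% of the mean. GTF2H5 at 29.8, 26.6 and 48.1 and MED30 at 28.8, 33.7 and 51.4 were also highest in replicate 3. MED1 at 440, 451 and 302, TAF3 at 528, 584 and 400 and POLR2E at 42.2, 47.4 and 29.6 were lowest there, so members moved in both directions. MED17 was low in replicate 2, at 16.4, 8.13 and 15.8. POLR2C had the narrowest spread, at 0.534% of the mean, and MED14 had 1.75%. The median over the 43 members was 10.8%, where counting error alone gives 3.13%, and 13.4% over 5040 protein-coding genes of that depth, where it gives 5.23%.

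**Figure D4:**
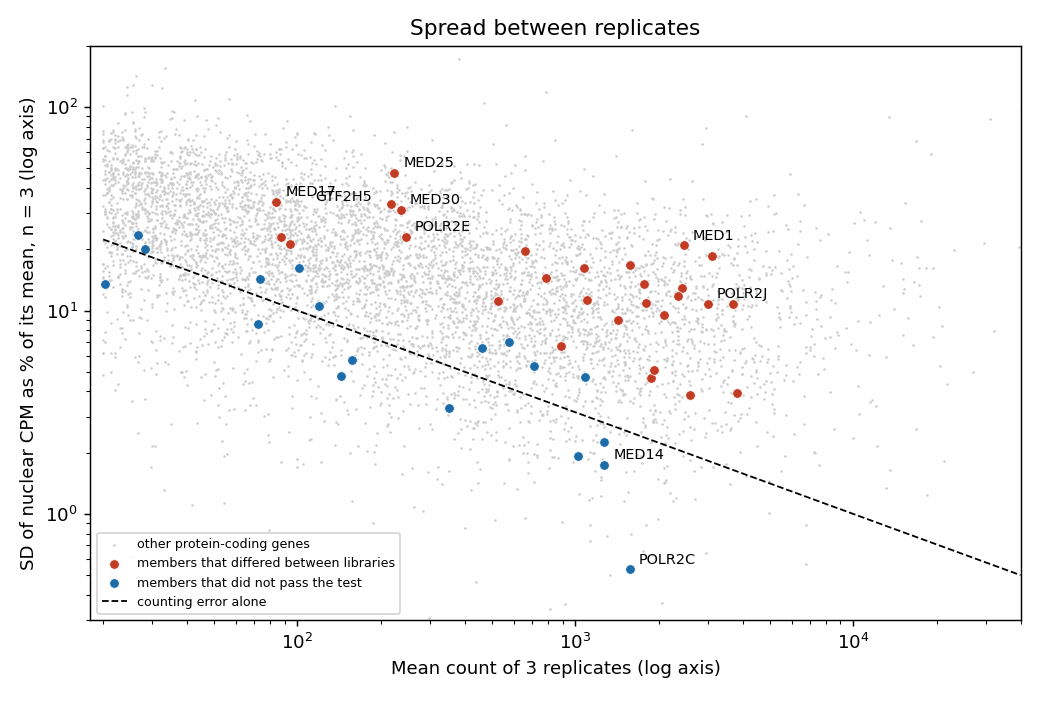
SD of the CPM outside mitochondrial genes as a percentage of the mean (n = 3) against the mean count, both on log axes, for members with a mean of at least 20 counts over other protein-coding genes in grey. The dashed line is counting error alone. Members called different between libraries, in red, lie above it, led by MED25 at 47.7%, and POLR2C at 0.534% lies lowest.

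On the TPM scale, where mitochondrial counts are part of the total, 37 of the 43 members were lowest in replicate 3. In CPM outside mitochondrial genes, 20 were lowest and 18 highest in it. Matching shares over all protein-coding genes of that depth are not given here, so these counts are not read as particular to the members. The expression category was the same in all replicates for 70 of 80 members (87.5%), beside 85.2% of protein-coding genes. The members that changed category were POLR2A, POLR2B, POLR2F, POLR2H, TAF1D, TAF6, GTF2H2, MED13L, MED18 and MED29, which apart from POLR2F and MED13L had at most 22 counts in any replicate.

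Genes that work beside the members were also uneven. Of 51 such genes found, 29 were expressed and 11 had no count. Among pausing factors 6 of 9 were expressed, led by NELFB of the negative elongation factor at 263 ± 77.6 TPM, and CDK9, the kinase that releases paused polymerase, was at 10.2 ± 1.74 TPM (SD, n = 3). Of 12 elongation and assembly genes 7 were expressed, led by RTF1 at 230 ± 71.4 TPM. Of genes particular to the other polymerases, 6 of 8 of polymerase I and 6 of 9 of polymerase III were expressed, and POLR3A, the largest subunit of polymerase III, was at 93.3 ± 32.6 TPM where POLR2A had at most 4 counts. POLR3A had a 3′ end of its own, whereas the canonical transcript of POLR2A was not among the transcripts analysed here. Their levels therefore cannot be ranked. The division by 3′ end was present here too, with 11 of 29 genes expressed under the 10% limit and 18 of 22 above it. Of 5 paralog genes outside the rule, TBPL1, TBPL2, GTF2A1L, GTF2H2C and POLR2J2, 0 were expressed. The 3′ ends of GTF2A1L and POLR2J2 were wholly shared with other transcripts, and those of TBPL1 and TBPL2 were their own. The level of GTF2H2C is as uncertain as that of GTF2H2, with which it shares sequence.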

How the data were processed

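RNA-seq data of HEK293T cells (3 biological replicates, 1 condition) were analysed from 1 table per replicate of 247541 transcripts. The submitters' processing notes name Trimmomatic 0.38.0, HISAT2 2.2.1 and featureCounts (given as 2.2.1) on hg38. The annotation release and the treatment of reads on several transcripts are not given in the sources used here. Per the file headers, the deposited counts are reads per transcript, and they are whole numbers that were not normalized. The TPM deposited by the authors are counts divided by the deposited transcript length and scaled to 1000000 per library.

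Transcripts were matched without version to GENCODE v44 (223558 of 247541, 61193 genes), and counts and TPM were summed per gene, leaving out 161 copies on the Y chromosome. Unmatched transcripts held at most 0.166% of counts and stayed in the totals. Libraries held 6262175 to 8521624 counts. Values are means ± SD of 3 replicates. The homogeneity test used Benjamini-Hochberg adjustment over 13060 genes and was tested on simulated data. Paralogs were compared by shared 31-base words of their canonical transcripts, in place of the protein identity first planned. Subunits were assigned to modules from general knowledge, after values were seen. Promoter stretches were read from hg38.

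Genes named in full were the highest and lowest of each group, the paralog pairs, genes without counts, POLR2A, TBP, MED1, MED14 and those of widest spread; others were given by values or counts, and genes outside the rule from lists of pathway genes, markers, overlapping genes and pseudogenes. The members and all lists were chosen with earlier results of these data known. Alternatives were other TPM thresholds, no division by length, protein-coding transcripts only, mitochondrial genes left out, the machinery of polymerase II only, other quartiles, exposures and expected counts, and each replicate left out. Python 3.11.15, numpy 2.4.6, pandas 2.3.3, scipy 1.17.1 and matplotlib 3.10.9 were used.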

Additional observations from a re-analysis of the deposited data

How the results depend on the processing

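The number of expressed members was between 37 (mean TPM of at least 10) and 66 (mean TPM above 0) beside 51, within 1.5 times in every alternative run. By group, expressed TAFs fell to 7 when SL1, SAGA and tissue-restricted paralogs and TAF15 were left out, since fewer genes are counted, and expressed Mediator genes to 12 at a TPM of at least 10. CPM, without division by length, gave medians of 48.8 for general factors and 11.7 for Mediator, and 2 low members in place of 4. Leaving out mitochondrial genes gave medians of 45.2 TPM for general factors, 7.92 for Mediator and 1.55 for TAFs, and moved the TPM of 40 of 80 members by more than 1 SD, since each total shrinks. With protein-coding transcripts only, the medians were 0.300 TPM for TAFs and 3.23 for Mediator, and the TPM of 14 members moved. The median over replicates gave 0.590 TPM for TAFs. The median of the TAFs of TFIID alone was 15.2 TPM. Members called different between libraries numbered 6 to 28 when 1 replicate was left out, with 6 without replicate 3. Shares over all genes are not given for these settings, so the fall is not read as a trait of the members. The cause was not tested. The expressed call was lost by MED29 without replicate 1 (0.991 TPM), by MED29 and GTF2H2 without replicate 2 (0.911 and 0.901 TPM) and by TAF1D without replicate 3 (0.372 TPM), and gained without replicate 3 by TAF6 (1.03 TPM) and POLR2A (1.10 TPM). Genes that are both at 3 counts or fewer cannot be ordered at this depth. No paired analysis was possible because the RNA-seq samples used here are of a single condition.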

Other observations

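Among genes named after members, 35 are pseudogenes by their gene type, of which 6 carried 64 counts in all. GTF2F2P1 had 9, 8 and 15 counts and TAF9BP1 had 3, 5 and 14, where GTF2F2 and TAF9B had over 1700 in each replicate. Of 6 antisense or divergent transcripts, 5 carried 194 counts in all. GTF2A1-AS1, on the other strand of the TFIIA gene GTF2A1, had 57, 36 and 68 counts, and MED4-AS1 had 8, 3 and 14. The strand setting of the counting is not given in the sources used here, so reads of a member and of its antisense partner may not be separable. Over protein-coding genes whose 3′ end lay in 1 transcript alone, the median count was 25 in 6983 genes with no exon of the other strand there and 6.33 in 266 genes overlapped throughout, the arrangement seen at MED31. The share of genes with no count went the other way, at 26.8% and 22.6%.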
